A study of Homo sapiens with 6 samples.

Results

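VGLL4 lies on human chromosome 3 and was studied for the trimethylation of lysine 4 of histone H3 (H3K4me3) along the gene. Its peaks were taken as those that overlapped the hg19 window of the gene, 185 kb from 11590 to 11775 kb, and an internal block of 43 kb between 11645 and 11688 kb was treated apart. The window held 45 of the 142800 peaks in the 4 deposited lists: 34 H3K4me3 peaks in Boost-Chir cultures, 11 H3K4me3 peaks in Low-Chir cultures and 0 peaks of H3K27me3 in either. The gene was chosen by its H3K4me3 covered length, since this block had the greatest difference between the cultures of all loci in these lists. The H3K4me3 values of both cultures, and the position of the block among other loci, are therefore a description and carry no test.

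VGLL4 encodes a transcriptional cofactor of the vestigial-like family that binds TEAD factors through its Tondu domains and competes there with YAP, the effector of the Hippo pathway. In colorectal cancer cells it has also been described on a complex that holds both a TEAD and a TCF factor, and TCF factors are the DNA-binding end of canonical WNT signalling. H3K4me3 is laid down at active and poised promoters, normally as a short domain over a CpG-rich transcription start, and long domains are known from genes that are highly active or tied to cell identity. H3K27me3 is the mark of Polycomb repression.

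The material was neural progenitor cells on day 11 of a midbrain dopamine differentiation, made from the established human embryonic stem cell line H9. All cultures received SHH, LDN and SB431542 with 0.7 µM CHIR99021, a GSK3 inhibitor that activates WNT signalling, from the start, and medium with 3 µM CHIR99021 from day 10. In Boost-Chir cultures the compound was raised to 7.5 µM between day 4 and day 10. Low-Chir cultures are not given a concentration of their own in the labels, which name 0.7 µM as the lowest one used in that period. Chromatin immunoprecipitation and sequencing was done for both marks in both conditions, with 1 library each, so no difference below has a replicate check. In a bulk culture, more cells with the mark and more mark per cell cannot be told apart. The peak lists hold no expression, and the labelled cell type was not checked here.

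The promoter set used here, on another build (GRCh38.p14), holds 5 transcription starts for VGLL4. All are on the minus strand, so that the gene is read toward lower coordinates. The RefSeq span of the gene ends above these starts, at 11721815, so the 5 may not be all of its starts. Peaks are on hg19 and no coordinate was converted, so which start lies under which peak was not determined. The uppermost 3 of the 5 starts, 76.6 kb and then 39.3 kb apart, are shown. They hold the highest and the lowest number of CG dinucleotides of the 5. Each sequence runs 5′ to 3′ on the gene's strand from 250 bases before the start to 50 bases after it, at chr3:11720490-11720789, chr3:11643866-11644165 and chr3:11604532-11604831 on GRCh38.p14. Capitals mark the CG dinucleotides.
VGLL4 start 1: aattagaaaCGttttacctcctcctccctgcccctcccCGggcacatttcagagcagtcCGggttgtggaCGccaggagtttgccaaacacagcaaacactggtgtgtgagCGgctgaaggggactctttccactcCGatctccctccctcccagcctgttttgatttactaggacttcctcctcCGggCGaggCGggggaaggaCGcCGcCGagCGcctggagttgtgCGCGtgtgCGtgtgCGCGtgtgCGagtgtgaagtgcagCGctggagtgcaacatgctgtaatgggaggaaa
VGLL4 start 2: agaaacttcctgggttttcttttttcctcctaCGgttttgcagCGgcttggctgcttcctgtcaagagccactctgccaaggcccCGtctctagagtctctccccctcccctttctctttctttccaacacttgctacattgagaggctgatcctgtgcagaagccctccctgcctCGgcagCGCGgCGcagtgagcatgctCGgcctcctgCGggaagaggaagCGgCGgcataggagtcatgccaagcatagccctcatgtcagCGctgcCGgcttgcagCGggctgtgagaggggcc
VGLL4 start 3: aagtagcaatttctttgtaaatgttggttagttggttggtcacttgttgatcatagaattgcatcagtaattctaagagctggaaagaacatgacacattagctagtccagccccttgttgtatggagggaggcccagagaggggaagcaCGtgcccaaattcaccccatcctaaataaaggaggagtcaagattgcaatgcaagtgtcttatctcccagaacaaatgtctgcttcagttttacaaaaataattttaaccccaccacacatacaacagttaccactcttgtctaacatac

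The starts differed in CpG content. The uppermost promoter of the 5 held 20 CG dinucleotides and the second 14, against a median of 14 over the 35116 promoters of the set. The third held 1, and only 3.96% of all promoters had fewer. The remaining starts, 22.2 kb and a further 13.6 kb downstream of the third, held 6 and 16. GC content was 59.3%, 59.7%, 41.0%, 51.0% and 62.7% from the uppermost start down. Short motifs were searched on both strands. The TCF/LEF core CTTTGT was found in 1 of the 5 promoters, that of the third start, and in 16.1% of all promoters. The other form, CTTTGA, was found in 0 of the 5 and in 12.9% of all promoters, and the TEAD core GGAATG in 0 of the 5 and in 14.0%. These are matches of letters and say nothing of binding.

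H3K4me3 stood in the same 3 places of the window in both cultures, and in Boost-Chir it also filled the stretch below the middle one. The window had 42.1 kb under H3K4me3 peaks in Boost-Chir and 10.3 kb in Low-Chir, a ratio of 4.10, or 2.57 with the top 25% of each list by −log10 q. Of the difference of 31.9 kb, the internal block held 85.6%, the part below the block 10.4% and the part above it 3.91%. In bins of 5 kb, 6 of 37 carried H3K4me3 in both cultures, 8 in Boost-Chir alone, 0 in Low-Chir alone, and 23 in neither. Bins were not counted over the whole genome, where H3K4me3 peaks covered 49.7 Mb in Boost-Chir and 38.5 Mb in Low-Chir. The empty bins included all those between the block and the upper cluster, where the longest run without a peak was 70970 bp in Boost-Chir and 73118 bp in Low-Chir.

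**Figure D1:**
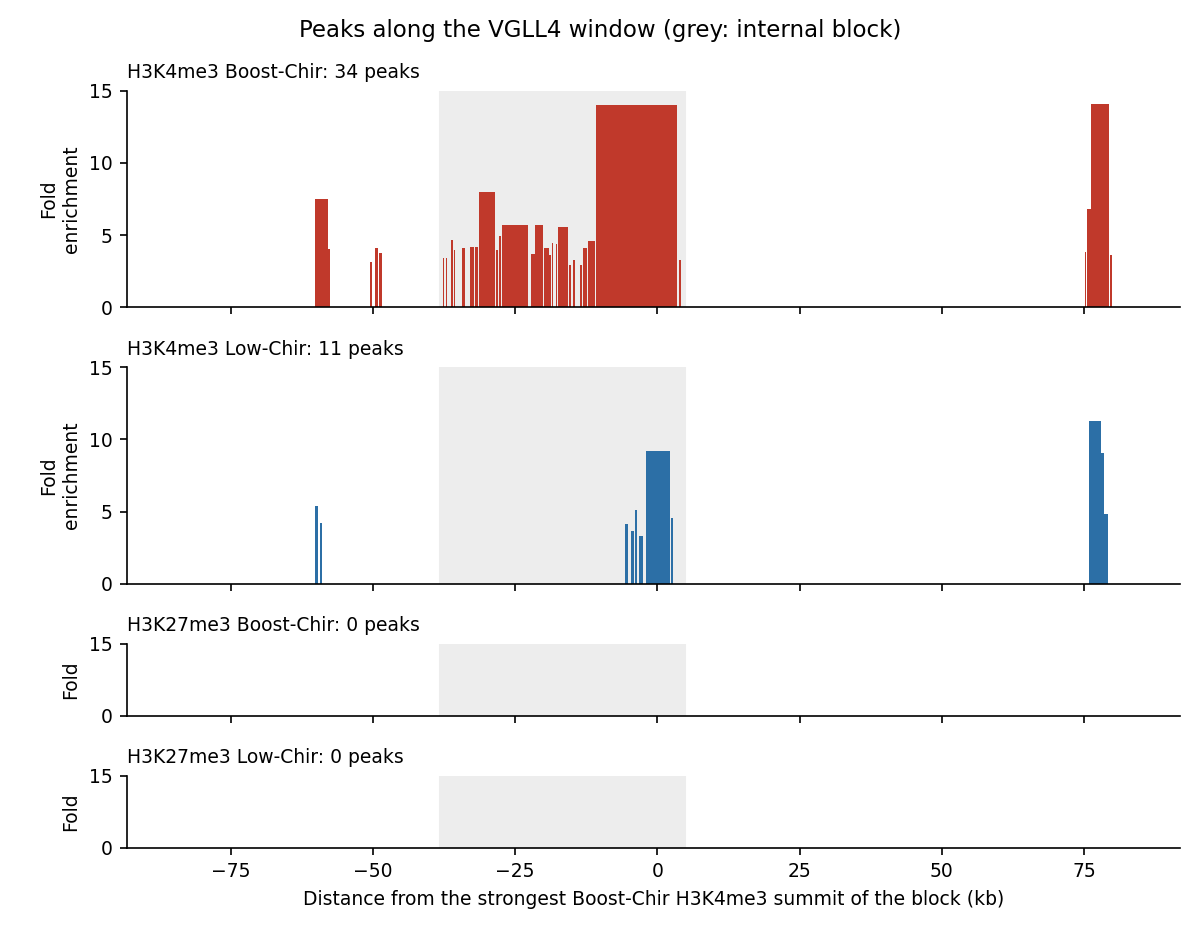
Peaks of the 4 lists along the VGLL4 window, with the distance from the strongest Boost-Chir H3K4me3 summit of the block (kb) on the x axis and the authors' fold enrichment of each peak on the y axis; each bar spans 1 peak and grey marks the internal block. Of the 34 Boost-Chir peaks, 25 lie in the block and fill most of it. The 11 Low-Chir peaks stand at the upper end of the block and in 2 further clusters, and both H3K27me3 rows are empty.

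The upper cluster, the farthest upstream on the minus strand, was much alike in the 2 cultures. It held 4 peaks over 4.30 kb in Boost-Chir and 3 peaks over 3.06 kb in Low-Chir, a ratio of 1.41 where the median over the 14475 H3K4me3 loci with peaks in both cultures was 1.28. Loci here are peaks of both conditions joined where they lay within 3 kb of each other. The strongest peak was chr3:11759464-11762536 in Boost-Chir, with a fold enrichment of 14.1 over the authors' local background and a −log10 q of 42.8. In Low-Chir it was chr3:11759134-11761078, with a fold enrichment of 11.3 and a −log10 q of 30.8. Their summits lay 28 bp apart. The other peaks of the cluster had fold enrichments of 3.82, 6.79 and 3.61 in Boost-Chir and of 9.03 and 4.86 in Low-Chir. The Low-Chir peak at 9.03, chr3:11761139-11761721, had a −log10 q of 19.0 and 28 reads at its summit.

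Reads at each H3K4me3 summit could be recovered from the fold enrichment and p-value, and they were divided by the genome-wide background of their library, which is proportional to depth. This background was 2.67 reads in Boost-Chir against 2.21 reads in Low-Chir, a depth ratio of 1.21. The upper cluster had 51 reads at its highest summit in Boost-Chir and 42 in Low-Chir. Per unit of depth these were 19.1 and 19.0, a ratio of 1.0 with an exact 95% interval of 0.65 to 1.55, which covers counting error only. Of the loci in both cultures, 33.9% had a lower ratio than this cluster.

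Most of the added length lay in the internal block. It held 25 peaks covering 33.7 kb in Boost-Chir and 6 peaks covering 6.41 kb in Low-Chir, a ratio of 5.26, or 3.37 with the top 25% of each list. Boost-Chir peaks ran from 11645480 to 11687358, an extent of 41.9 kb of which 80.4% was under peaks. Low-Chir peaks ran from 11677495 to 11686015, an extent of 8.52 kb of which 75.2% was under peaks. Peaks thus filled the longer domain at least as fully as the shorter one, with a longest gap of 1244 bp in Boost-Chir and 685 bp in Low-Chir.

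The reach into the gene was one-sided. Beyond the Low-Chir ends, Boost-Chir peaks reached 32.0 kb further toward lower coordinates, the direction of transcription, and 1.34 kb further toward higher ones, so that 96.0% of the added reach lay on the lower side. Among 1158 H3K4me3 loci with peaks in both cultures and a gain of 2 kb or more in Boost-Chir, 25.7% reached beyond their Low-Chir ends with at least 90% of the reach on 1 side. Their median reach, on the side where it was longer, was 2.07 kb. The 32.0 kb of VGLL4 came first, ahead of 12.8 kb at the next locus. Its lower end was set by a weak Boost-Chir peak of 200 bp, with 12 reads and a −log10 q of 3.13. The reach was not recomputed with stricter peak sets. With the top 25% of each list by −log10 q, the block kept 14.3 kb under peaks in Boost-Chir and 4.23 kb in Low-Chir. This was its strongest peak alone in each culture. Of the 23 Boost-Chir peaks wholly below the Low-Chir ends, the best by −log10 q stood at the top 26.2% of its list, so none was kept. Between the Low-Chir ends themselves, 100% of the sequence was under Boost-Chir peaks.

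**Figure D2:**
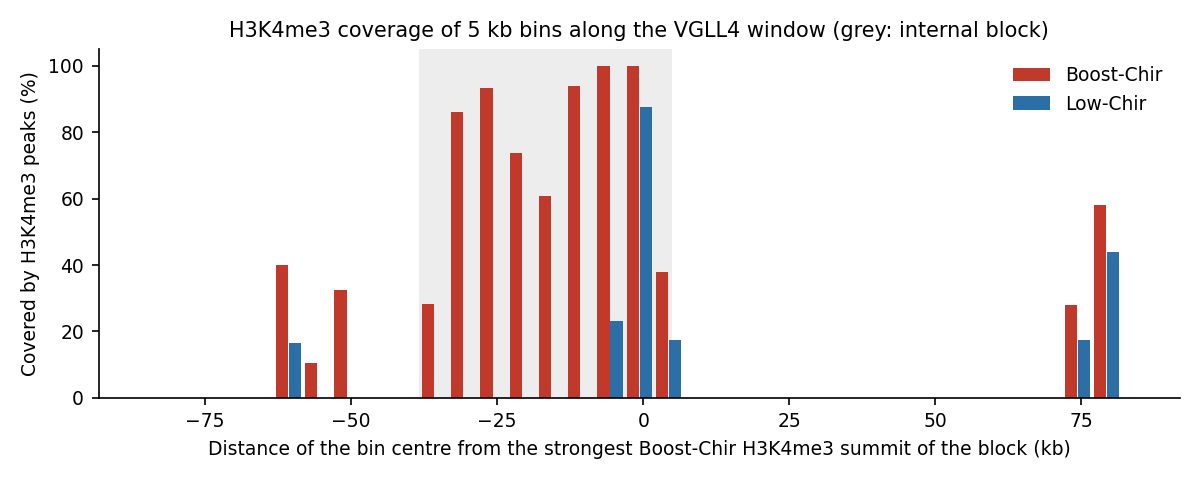
Share of each 5 kb bin under H3K4me3 peaks (%) in Boost-Chir and Low-Chir, against the distance of the bin centre from the strongest Boost-Chir summit of the block (kb); grey marks the internal block. In the block the Boost-Chir bins lie between 28.2% and 100%, and Low-Chir is above 0 in the 3 uppermost bins of it, at 23.0%, 87.7% and 17.4%.

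Within the block the Boost-Chir mark had a main summit, a long shoulder and a second, lower summit. The main peak, chr3:11672328-11686599, was 14.3 kb long, the tenth longest of the 46793 peaks in the Boost-Chir list, and had a fold enrichment of 14.0 and a −log10 q of 59.0. The Low-Chir main peak, chr3:11681169-11685401, was 4.23 kb long, number 458 by length among 44022, with a fold enrichment of 9.19 and a −log10 q of 27.6. The Boost-Chir peak spanned all 6 Low-Chir peaks of the block. The other Low-Chir peaks there were weak, with fold enrichments from 3.28 to 5.10 and 12 to 24 reads at the summit.

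The main summits of the block lay at 11683181 in Boost-Chir and 11684419 in Low-Chir, 1238 bp from each other. Reads there numbered 76 in Boost-Chir and 44 in Low-Chir, or 28.4 and 19.9 per unit of depth. The ratio was 1.43, with an exact 95% interval of 0.97 to 2.12 from counting error alone, which includes 1. Each count was the highest of its peak, picked at a different position in each culture, so the interval serves as no test. Over the loci in both cultures, this ratio of highest summits had a median of 1.08 and lay between 0.76 and 1.44 from the 5th to the 95th percentile, with 94.4% of loci below the block. This height ratio was below the block's ratio of covered length, 5.26, but the 2 are unlike measures. The length was not adjusted for depth, and the locus was chosen by it.

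The second summit of the block, chr3:11651809-11654635, stood 29.7 kb below the main one. It was found in Boost-Chir alone, at a fold enrichment of 8.01, a −log10 q of 19.9 and 33 reads. The longest peak of the shoulder was chr3:11655919-11660400, at 4.48 kb and a fold enrichment of 5.71. In all, 23 Boost-Chir peaks of the block lay wholly below the Low-Chir ends. Their fold enrichment ran from 2.90 to 8.01 with a median of 4.13, and 7 of them reached the list's median of 4.50. They had 12 to 33 reads at the summit, with a median of 16. Each of the 23 stood on a local background above the genome-wide one, 1.04 to 2.02 times as high, with a median of 1.15 against 1.08 over the whole Boost-Chir list.

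The peaks of the added reach were also expressed at the depth of the shallower library. Scaled to the Low-Chir library, the 23 peaks would have had 9.93 to 27.3 reads, with a median of 13.2. The weakest Low-Chir peak on genome-wide background had 8 reads, but that number does not apply here, since all 23 stood on a higher local background, which raises the reads a peak needs. The Low-Chir background at these sites is not listed where there is no peak. The part that depth and background had in the width of single peaks was not tested.

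**Figure D3:**
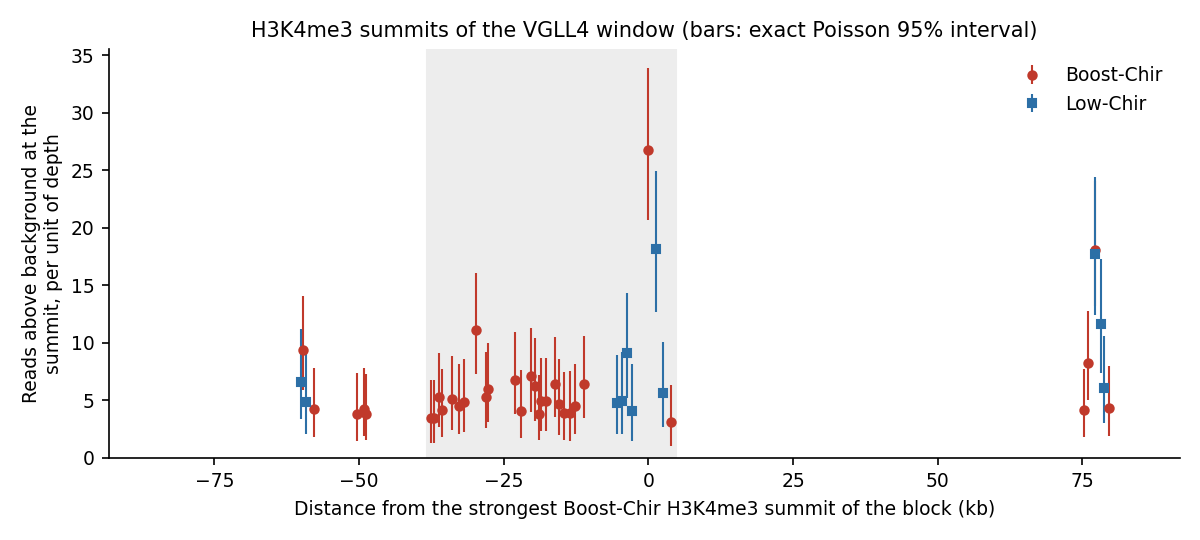
Reads above local background at each H3K4me3 summit of the VGLL4 window, divided by the genome-wide background of the library, against the distance from the strongest Boost-Chir summit of the block (kb); circles are Boost-Chir, squares are Low-Chir, bars are exact Poisson 95% intervals of the reads and grey marks the internal block. The main summits of the block stand at 26.75 in Boost-Chir and 18.1 in Low-Chir, the second Boost-Chir summit at 11.1, and the summits of the upper cluster at 18.1 and 17.7.

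The lower part of the window, the farthest downstream, carried the weakest mark. It had 5 peaks over 4.15 kb in Boost-Chir and 2 peaks over 0.821 kb in Low-Chir, a ratio of 5.05. This ratio pools separate loci, unlike that of the block. The locus with peaks in both cultures had 2.52 kb in Boost-Chir and 0.821 kb in Low-Chir, a ratio of 3.08. The leading Boost-Chir peak, chr3:11623000-11625239, had a fold enrichment of 7.46, a −log10 q of 16.4 and 28 reads at the summit, or 10.5 per unit of depth. The leading Low-Chir peak, chr3:11622976-11623495, had a fold enrichment of 5.39, a −log10 q of 7.83 and 17 reads, or 7.69 per unit of depth. The ratio of 1.36 had an exact 95% interval of 0.72 to 2.65, which includes 1. This interval covers counting error only and serves as no test. Of the loci in both cultures, 91.3% had a lower ratio of highest summits. A separate group of 3 Boost-Chir peaks, from 11632664 to 11634808, had no Low-Chir peak beside it and covered 1.62 kb. Its fold enrichments were 3.13, 4.08 and 3.78, each below the median of the list.

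The distance from the lower to the block summit was 59.7 kb in Boost-Chir and 61.3 kb in Low-Chir, and that from the block to the upper summit 77.2 kb and 76.0 kb. The spacing of the 3 leading summits was thus roughly alike in both cultures. Each was taken within its own part of the window, so their order was fixed in advance. Most of the H3K4me3 that Boost-Chir added lay between the lower and the middle one.

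Peak by peak, 30 of 34 Boost-Chir peaks of the window (88.2%) were overlapped by no Low-Chir peak, against 40.4% of the whole Boost-Chir list. The unmatched peaks made up 4 of 5 in the lower part, 24 of 25 in the block and 2 of 4 in the upper part. These are shares by number and not by length. The matched Boost-Chir peaks were 2.24, 14.3, 0.618 and 3.07 kb long, of 42.1 kb under Boost-Chir peaks in the window. In the other direction 0 of 11 Low-Chir peaks lacked a Boost-Chir peak, against 16.4% of the Low-Chir list. An overlap of at least 1 bp counted. Since the locus was chosen by its H3K4me3 length, this contrast is in part fixed by the choice.

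Among all H3K4me3 loci, 7.18% of 16580 gained 2 kb or more in Boost-Chir and 0.344% lost as much. Of the 4 loci in the VGLL4 window, the block was longer by 27.3 kb and the others by 1.70 kb, 1.62 kb and 1.25 kb, below that limit. The next locus of the genome was longer by 14.5 kb. With the top 50% of each list the block broke into 3 loci, of which the leading one was longer by 11.5 kb and ranked number 4. The block ranked number 4 by covered length in Boost-Chir and number 527 in Low-Chir. In 407 other loci whose Low-Chir length was within 10% of that of the block, the Boost-Chir length ran from 1.97 to 18.1 kb with a median of 7.42 kb. Of 17 loci with at least 20 kb in Boost-Chir, 1 was at least 3 times as long there as in Low-Chir, and this was the VGLL4 block.

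**Figure D4:**
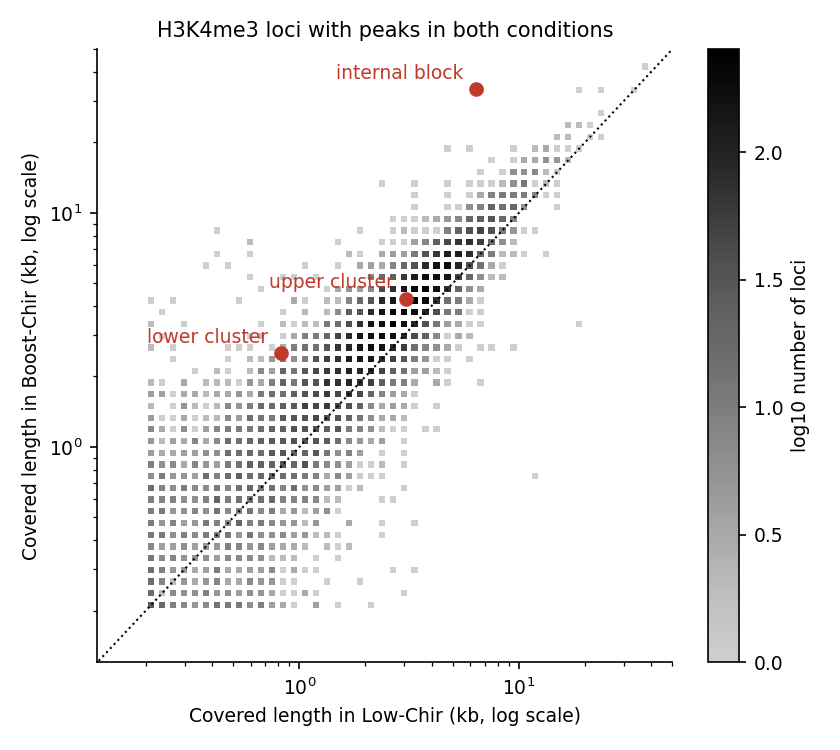
Covered length of H3K4me3 loci with peaks in both cultures, Boost-Chir on the y axis and Low-Chir on the x axis (kb, both log scales); grey squares give the number of loci, the dotted line marks equal length and circles are the loci of the VGLL4 window. The upper cluster, at 4.30 and 3.06 kb, lies in the main cloud, and the internal block, at 33.7 and 6.41 kb, lies apart above it.

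The loci most like the block were found by distance in log2 covered length over the 2 libraries. The nearest was chr10:102489438-102514179, with 19.4 kb in Boost-Chir and 4.92 kb in Low-Chir. It was followed by chr2:171561391-171582575 with 18.1 and 5.84 kb. Both differed from VGLL4 in the other mark. The locus on chromosome 10 had 10955 bp of H3K27me3 in Boost-Chir and 24587 bp in Low-Chir, and the locus on chromosome 2 had 0 bp in Boost-Chir and 9830 bp in Low-Chir. The next, chr17:63537571-63558621, had 17.4 kb in Boost-Chir and 7.53 kb in Low-Chir, and chr17:33893194-33919043 had 17.9 and 9.94 kb. These 2 carried no H3K27me3 in either culture, as VGLL4. The fifth, chr4:109078185-109095365, had 15.3 and 6.92 kb of H3K4me3, with 0 bp of H3K27me3 in Boost-Chir and 2916 bp in Low-Chir. The ratios of the 5 were 3.95, 3.10, 2.31, 1.80 and 2.22. Of the 14475 loci in both cultures, 69 had a ratio of at least 5.26, the block included, and the other such loci were shorter in Low-Chir than the block.

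H3K27me3 was measured apart from the choice of the locus, and the window carried 0 bp of it in Boost-Chir and 0 bp in Low-Chir. The nearest peak below the window lay 390 kb away in Boost-Chir and 388 kb away in Low-Chir, and the nearest above it 273 kb away in Boost-Chir and 421 kb away in Low-Chir. The Boost-Chir peaks were 315 and 396 bp long, with fold enrichments of 3.40 and 4.69. The Low-Chir peaks were both 218 bp long, with fold enrichments of 4.52 and 3.87. Lack of a peak sets no level, as the lists hold only peaks past the calling threshold. Absence of the mark was common: 75.8% of all H3K4me3 loci, and 85.9% of the 1191 loci that gained 2 kb or more, had no H3K27me3 in either list. Of the 17 loci with at least 20 kb of H3K4me3 in Boost-Chir, 13 had none.

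H3K4me3 loci on either side of the window did not share the width of the block. Above it, chr3:11885528-11888430 lay 111 kb away and had 2.70 kb in Boost-Chir and 1.81 kb in Low-Chir, a ratio of 1.49. Below it, chr3:11420969-11421916 lay 168 kb away and had 0.800 kb in Boost-Chir and 0 in Low-Chir. The closest locus below with peaks in both cultures, chr3:11313690-11316448, had 2.37 and 2.48 kb, a ratio of 0.959. In highest summits per unit of depth, the ratio was 1.35 at the locus above and 1.16 at this one, against 1.43 at the block. In RefSeq on GRCh38.p14, VGLL4 spans 166 kb and is flanked by ATG7, a gene of autophagosome formation whose end it overlaps over 20.3 kb, and by TAMM41, which makes CDP-diacylglycerol in mitochondria. The window may therefore hold ends of both neighbours, and its peaks were not divided among genes.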

How the data were processed

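The 4 antibody libraries each had 1 peak list, and the 2 input libraries were not analysed here. Reads were handled with cutadapt 1.6, BWA 0.7.12 and Picard on hg19, per the submitters' processing notes. Which peak caller and threshold were used is not given in the sources used here. The input of the same condition served as control for each library, per the names of the deposited peaks. The authors deposited for each peak its fold enrichment (a ratio over local background), its −log10 p-value and −log10 q-value and its summit. Their deposited score, 10 times the −log10 q without decimals, was left aside. Chromatin was fragmented enzymatically, per the labels' protocols.

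VGLL4 and the lists of loci were chosen with earlier results of these data known. Positions are hg19, counted from 1. Python 3.11.15, numpy 2.4.6, scipy 1.17.1 and matplotlib 3.10.9 were used. Reads at H3K4me3 summits were solved from the fold, taken as reads + 1 divided by background + 1, with p read as a Poisson tail. For 100% of peaks the solution came within 0.001 of the deposited −log10 p, and the code was tested on simulated data. Files state no read total, so depth is known only through the background in reads, which also grows with fragment length. Peaks described in full are the 3 with the highest fold in each H3K4me3 list. Other loci are the 5 nearest to the block in log2 length and the ones flanking the window. The leading peaks of the lower part, the longest peak of the shoulder and the flanking locus with peaks in both cultures were added after their values were seen. A fixed list of Hippo pathway genes was not counted, as no hg19 annotation was used here. With 1 library per mark and condition, no test was made.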

Additional observations from a re-analysis of the deposited data

How the results depend on the processing

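No paired analysis was possible because there was a single library for each mark in each culture. A length ratio was taken as unmoved when it stayed within the exact 95% binomial interval of the main value, with length counted in units of 200 bp. Adjoining units of a peak are not independent and the unit was a free choice. The interval therefore served as a tolerance only and measures no error. Of 60 alternatives, 18 could not move the value, since they dropped no peak of the window or there was no H3K27me3 peak to drop. Of the other 42, 27 left the value within its limits and 15 did not, and 0 turned the direction of a length ratio. With the top 25% of each list by −log10 q, the ratio of Boost-Chir to Low-Chir H3K4me3 length was 2.57 in the window, 3.37 in the block and 1.22 in the rest of the window. The other alternatives gave 3.96 to 4.38 for the window, with peaks joined, matched in number or in −log10 q, or a wider window. Peaks in the window numbered 12 in Boost-Chir and 5 in Low-Chir in the top 50%, 2 and 3 in the top 25%, 19 and 7 at a −log10 q of at least 5, 7 and 3 at 10, and 4 and 3 when joined within 3 kb. With the top 25%, the order of the peak numbers thus turned while that of the lengths did not. The block ranked 4 by change in length with the top 50%, where it broke into 3 loci, and 1 under the other 4 alternatives that could move it. In 1 of those 4, joining within 1 kb, it broke into 2 loci, of which the leading one was longer by 26.3 kb. Asking for 50% overlap, 97.1% of Boost-Chir peaks were unmatched. Matching reads per unit of depth, chosen after seeing the data, dropped no peak of the window and so tested nothing of depth there. Width could not be recomputed at equal depth, and that limits every length given.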
